A study of Mus musculus with 18 samples.

Results

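Ribosomal proteins of the cytosolic ribosome were compared in laser-captured regions of normal mouse thyroid and of mouse thyroid after partial thyroidectomy. Members were all genes on the array whose printed symbol is Rpl or Rps followed by a number and, in some, the letters a, l, x, y or p. Kinases of the Rps6k family and mitochondrial ribosomal proteins were left out. The rule found 77 genes with 130 probes among 27962 genes in all, 31 of the small and 46 of the large subunit, and took for each gene its probe of highest mean intensity. The probe descriptions of 75 of the 77 genes name a ribosomal protein.

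The study, on proliferation of thyroid cells once part of the gland is removed, compared 4 groups of regions. All came from frozen sections of the thyroid of male C57BL/6 mice: 5 normal central, 3 normal peripheral, 5 dissected central and 5 dissected peripheral regions, where dissected means after partial thyroidectomy and normal means without it. The central area of a lobe holds the calcitonin-secreting C cells beside follicles, whereas the periphery holds follicles. Each region's amplified RNA, labelled with Cy5, was hybridised against one Cy3-labelled reference RNA pooled from Swiss Webster mouse organs (among them embryo, liver, kidney, spleen and testicle), so each value below is a log2 ratio of Cy5 over Cy3; no array swapped the dyes. The labels name neither the mouse behind a region, nor its age, nor the time since surgery. Regions of one mouse may therefore sit in several groups or share a group, and p-values over regions can then be too small.

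Each ribosome joins a small subunit, which decodes the messenger RNA, to a large subunit, which forms the peptide bond, and every subunit carries one copy of nearly all of its proteins. The genes are transcribed strongly in all cells, and growing or dividing cells make more ribosomes. Many of their messenger RNAs begin with a C followed by a run of pyrimidines, the 5' terminal oligopyrimidine tract, through which translation of the whole family is adjusted to nutrients and growth signals. A level of messenger RNA therefore shows one layer of their control only.

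The tract, which was not used to choose the members, was found at a minority of their annotated transcription starts, at a larger share than over all genes. Of 77 members, 58 had at least 1 entry in the RefSeq promoter table (build GRCm38.p6). A start that reads C followed by at least 4 further C or T, read on the gene's strand only, was found in 12 of 69 member entries, or 17.4%, against 2.51% of all 32851 entries; 46 of the 58 members had no such start. Windows of 20 bases before and 10 bases from the annotated start are given 5' to 3' for those 12, with the tract in capitals as far as it lies in the window.
Rps6 (chr4:86857358-86857387, minus strand): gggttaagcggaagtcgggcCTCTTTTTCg
Rps10 (chr17:27635235-27635264, minus strand): acgctgcgccgcgcacgcccCTTCCTTTCC
Rps15a (chr7:118116138-118116167, minus strand): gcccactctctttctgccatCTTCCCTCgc
Rps18 (chr17:33955656-33955685, minus strand): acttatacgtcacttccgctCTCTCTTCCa
Rps21 (chr2:180257359-180257388, plus strand): gcacttaccgaggacccgccCTCCTgccca
Rps27 (chr3:90213639-90213668, minus strand): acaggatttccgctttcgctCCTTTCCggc
Rpl14 (chr9:120571497-120571526, plus strand): cggcagggcgggccctctctCTTCTCgctg
Rpl15 (chr14:18270977-18271006, minus strand): ggattgtgggagaaagccttCTTCCTTTCC
Rpl28 (chr7:4792945-4792974, plus strand): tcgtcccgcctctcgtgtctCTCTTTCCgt
Rpl35 (chr2:39005122-39005151, minus strand): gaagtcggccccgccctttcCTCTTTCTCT
Rpl35a (chr16:33056462-33056491, plus strand): gcgcggcggggcttgccttcCTCTTTCCgc
Rpl38 (chr11:114668560-114668589, plus strand): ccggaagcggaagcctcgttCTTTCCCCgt
The letters CGGAAG, on either strand, occurred in 59.4% of the member entries of 300 bases and in 16.9% of all entries of that length. These are matches of letters in annotated windows, not measured starts or binding sites.

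The probes that carry the values are 60 bases long, and near-identical copies of ribosomal protein genes limit what they can tell apart. For 8 members, probe pairs overlapped by at least 25 bases, and in 6 of these pairs the printed letters differed at 2 to 4 positions inside the overlap. The pair of Rpl35a is shown because both probes read nearly the same stretch, with the differing letters in capitals.
Rpl35a, brighter probe (chr16:32732018-32733213, plus strand): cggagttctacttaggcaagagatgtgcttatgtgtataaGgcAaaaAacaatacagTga
Rpl35a, dimmer probe (chr16:32732033-32733233, plus strand): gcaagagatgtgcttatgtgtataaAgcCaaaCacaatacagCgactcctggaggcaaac
Counted from the 5' end of the brighter probe, the substitutions are G41A, A44C, A48C and T58C. The coordinates are those printed in the files, on build NCBI35 (mm7), and span an intron for both probes. The log2 differences between groups of the Rpl35a pair lay within 0.143 of each other in all 4 comparisons of groups. The gap was widest after dissection in the peripheral area. There the signs were opposite, at 0.02 for the brighter and -0.13 for the dimmer probe. Whether a copy other than the named gene feeds such a probe was not tested.

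Of the 77 members, 75 passed the filter on dim probes, being well above background in Cy5 on at least 3 arrays, and all 75 did so on all 18 arrays. No member spot was saturated. Rpl4, a large-subunit protein of all cells, has 1 probe, and it was not well above background on any array, while Rpl3l, a muscle-type relative of Rpl3, was so on 1 array; neither entered a test. The 75 tested members made up 31 small-subunit and 44 large-subunit genes. Over the 18 arrays, the SD of a member's log2 ratio was 0.30 at the median, from 0.16 for Rpl7a to 0.54 for Rpl31, against a median of 0.32 over all 14717 genes tested.

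No ribosomal protein gene differed between any groups after correction. At an adjusted p under 0.05 (limma, Benjamini-Hochberg over 14717 genes), 0 of 75 members were called in the 4 comparisons of groups, in the difference between areas in the change after dissection and in the F test among the 4 groups. The same fit called 0%, 0%, 0.279%, 0.598%, 0% and 1.07% of all genes, in that order. At an unadjusted p under 0.05, limma gave 4 members lower after dissection in the central area, against 3.28% of all genes, and 3 lower in the peripheral area, against 3.91%. Between the areas of the normal thyroid 10 members were higher in the centre at that level, against 5.69% of all genes, and between those of the dissected thyroid 0 members differed either way, against 7.43%. The difference between areas had 6 such members below 0, against 3.28% of all genes, and the F test had 2, against 8.91%. The C cell markers separated the areas: of 13 C cell markers tested, 8 were higher in the central area of the normal and 10 in that of the dissected thyroid, among them Calca, the calcitonin gene, at log2 differences of 3.83 (SE 0.72, adjusted p = 0.0374) and 4.50 (SE 0.66, adjusted p = 0.00316).

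The 95% intervals of the fit, on loess ratios and with regions taken as independent, gave bounds on the members' differences. After dissection in the central area, the 95% interval of 72 of 75 members lay within a 2-fold change in either direction, against 89.8% of all genes, and in the peripheral area 71 of 75 did so, against 80.6%. Between areas, 63 of 75 members lay within this bound in the normal thyroid, against 80.2%, and 75 of 75 in the dissected thyroid, against 88.6%. Within 1.5-fold, the counts were 40, 30, 26 and 58 in the same order, against 54.2%, 37.7%, 37.9% and 52.4% of all genes. With median centring in place of loess the member medians were -0.46, 0.61, 0.82 and -0.28, so these bounds depend on the scaling.

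After partial thyroidectomy, ribosomal protein messages of the central area lay slightly lower as a group. The median log2 difference over the 75 members was -0.17, against -0.01 over all genes, and 70 members were below 0, which was so for 51.2% of all genes. All 31 small-subunit members were below 0, with a median of -0.15, and 39 of 44 large-subunit members, with a median of -0.17. Of the 5 members above 0, Rpl7l1, Rpl23a, Rpl21, Rpl18 and Rpl12, none differed from 0 by more than 0.07. The median stayed below 0 under all 36 other settings tried, but some of them, such as leaving out a peripheral array, could not move it. It ran from -0.46 with median centring in place of loess to -0.09 without the 4 arrays of weakest signal. These were normal peripheral 1, dissected central 1 and 2, and dissected peripheral 1. Without these 4 arrays 56 of 75 members were below 0. In the small subunit this left 21 of 31 below 0, with a median of -0.057, and in the large subunit 35 of 44, with a median of -0.12. With the slide as a block the median and the 70 members below 0 could not change, since each slide holds 1 normal and 1 dissected central array. In that fit 10 members, against 4.04% of all genes, were lower at an unadjusted p under 0.05.

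**Figure D1:**
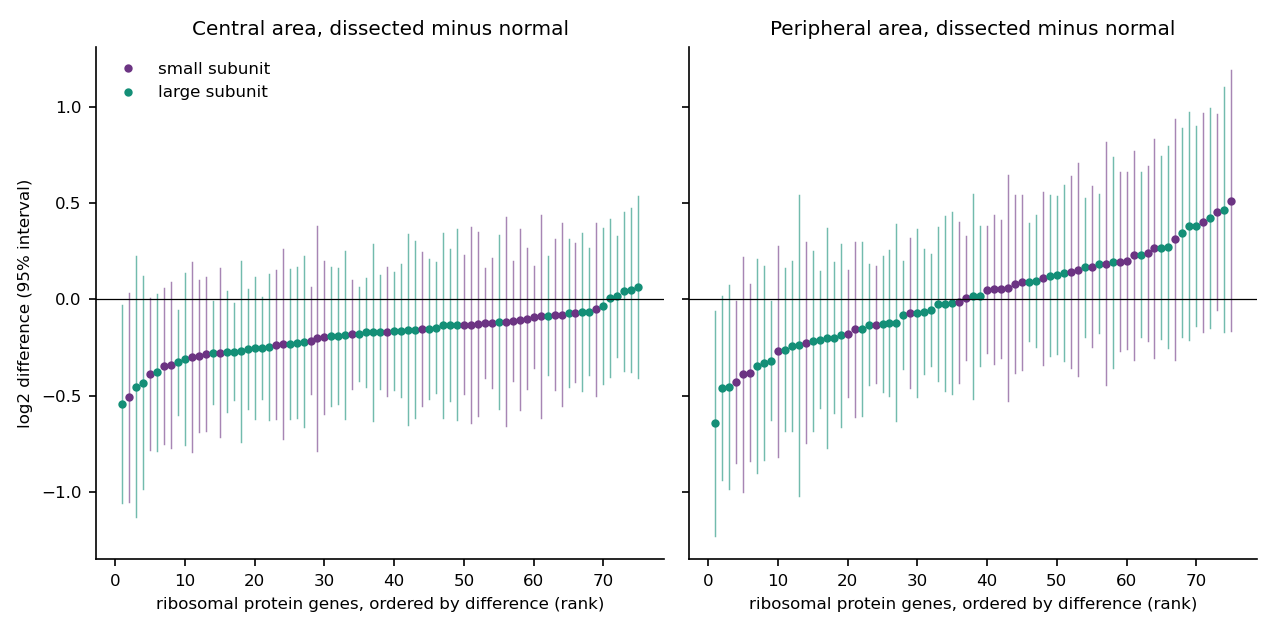
Log2 differences between dissected and normal thyroid (points) with their 95% intervals (lines) for the 75 tested ribosomal protein genes, ordered by difference, in the central area (left) and the peripheral area (right); purple marks the small and green the large subunit. In the central area 70 of 75 points lie below 0, in the peripheral area 36 of 75 (1 of 75 with median centring in place of loess), and the intervals of 4 and of 3 genes exclude 0.

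In the central area the arrays of the groups overlapped. The median member ratio of an array was 0.03 ± 0.14 (SD, n = 5) in normal central, -0.13 ± 0.15 (n = 5) in dissected central, -0.15 ± 0.18 (n = 3) in normal peripheral and -0.15 ± 0.18 (n = 5) in dissected peripheral regions. The 5 normal central arrays stood at 0.01, -0.04, 0.27, -0.07 and -0.03, and the 5 dissected central arrays at -0.33, -0.23, 0.04, -0.05 and -0.09. The groups overlap: normal central 3 stands above all others, dissected central 1 and 2 lowest, and the remaining 7 central arrays lie between -0.09 and 0.04. Dissected central 1 and 2 were also arrays of weak signal, with 29.5% and 28.1% of probes well above background in Cy5, against 36.1% to 43.0% on the other 8 central arrays. Set against each other on the same slide, dissected minus normal central regions gave median differences of -0.31, -0.20, -0.23, 0.01 and -0.11 on slides 1 to 5. By scan day the median was -0.12 on day 1 (slides 3 and 4) and -0.23 on day 2. In these bulk regions, fewer cells of a type and less RNA per cell cannot be told apart.

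Marker genes of other cells were read beside this shift. After dissection 12 of 13 C cell markers were below 0 in the central area, none called by limma, 2 of them at an unadjusted p under 0.05, with a median of -0.67. In the peripheral area, where the members' median was 0.02, 12 of 13 were below 0 as well, 4 of them lower at an unadjusted p under 0.05, with a median of -0.70. The 1 marker above 0 there, at 0.79, was higher at that level. Over all genes 3.91% were lower and 4.42% higher at that level in the peripheral area. In the central area 2 of 5 lymphocyte markers were lower at that level too, against 3.28% of all genes, with a list median of -0.17 and none called. Of these 5, 2 were above 0. Of 8 macrophage markers 6 were above 0 there and 2 below, with a median of 0.19 and 1 higher at that level. Above 0 were also 7 of 8 skeletal muscle markers (median 0.36), 5 of 7 fat markers (0.42) and 4 of 7 endothelial markers (0.0085). Of the endothelial markers 1 was higher at that level, against 1.95% of all genes. The C cell markers' median level ran from 0.36 to 1.26 over the normal central and from -1.12 to 0.95 over the dissected central arrays, lowest on dissected central 2. The median level of 8 skeletal muscle markers ran from -1.34 to 0.55 and from -1.06 to 1.01, and that of 7 thyrocyte markers from -0.32 to 0.29 and from -0.25 to 0.02. No skeletal muscle or thyrocyte marker was called by limma either, 0 of both lists having an unadjusted p under 0.05 in the central comparison. Their part in the members' shift was not tested.

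The members of smallest p in this comparison were Rpl6, Rpl32 and Rpl22l1, all of the large subunit. Rpl6, a large-subunit protein, read 0.09, 0.18, 0.29, -0.27 and -0.05 on the normal central and -0.15, -0.41, -0.03, -0.38 and -0.43 on the dissected central arrays. Its difference was -0.33 (SE 0.13, 95% interval -0.60 to -0.06, adjusted p = 0.868). Normal central 4 and 5 lay within the dissected range, so the groups overlap. Its probe spans an intron at chr5:120442541-120442806 (mm7, plus strand) and is shown because both of its probes gave a lower mean after dissection, at -0.33 and -0.17.
Rpl6: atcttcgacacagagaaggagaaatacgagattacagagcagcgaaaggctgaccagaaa

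Rpl32, a large-subunit protein often taken as a reference gene in expression studies, differed by -0.27 (SE 0.12, adjusted p = 0.911), from -0.13 ± 0.13 (SD, n = 5) to -0.40 ± 0.14 (n = 5). Rpl22l1, a close relative of Rpl22 that can stand in for it on the ribosome, read 0.12, 0.46, 0.31, 0.30 and 0.62 on the normal central and -0.58, -0.16, -0.16, 0.16 and -0.18 on the dissected central arrays. Only dissected central 4 reached into the normal range, above normal central 1. The difference of Rpl22l1 was -0.54 (SE 0.24, adjusted p = 0.927), the lowest of all members. Rpl22 itself differed by -0.25 (SE 0.18, adjusted p = 0.998). For 3 members the groups did not overlap, Rpl17, Rpl30 and Rps14, all lower after dissection, which was so for 0.564% of all genes.

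In the peripheral area, members lay on both sides of 0 after dissection. The median difference was 0.02 and 36 of 75 members were below 0, against 49% of all genes, with 10 of 31 in the small and 26 of 44 in the large subunit. This even split depended on the scaling: with median centring in place of loess 1 of 75 was below 0 and the median was 0.61, and with scale normalization between arrays it was 0.22. It depended as well on a single array, normal peripheral 1, without which 52 of 75 members were below 0 and the median was -0.07. With the slide as a block 45 of 75 were below 0, the median was -0.053, and 8 members, against 4.91% of all genes, were lower at an unadjusted p under 0.05. The groups' array medians were -0.34, -0.13 and 0.02 in normal and -0.18, -0.38, 0.13, -0.10 and -0.20 in dissected peripheral regions, and the ranges overlap. Over slides 1, 2 and 4, which hold both groups, the median difference was 0.11, -0.22 and -0.07.

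Rpl23a and Rpl29 were among the members of smallest p in the peripheral area. Rpl23a, whose protein lies by the exit of the nascent chain, differed by -0.64 (SE 0.28, adjusted p = 0.579) and by -0.10 without normal peripheral 1. The fit of Rpl23a lacks 1 spot in each of the 2 groups, left out as non-uniform, so it rests on 2 and 4 arrays, and without normal peripheral 1 on a lone normal array, assumed to vary like the other groups. At the other end Rps24, a small-subunit protein, read -1.76, -0.22 and 0.24 on the normal peripheral and -0.10, -0.34, -0.04, 0.09 and 0.07 on the dissected peripheral arrays. Its difference was 0.51 (SE 0.32, adjusted p = 0.676), and -0.07 without normal peripheral 1, the lowest of the 18 arrays for this gene.

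Rpl29, a small basic protein of the large subunit, was lower after dissection in both areas by its brightest probe. It read -0.21, -0.24, -0.14, 0.25 and -0.32 on normal central, 0.17, -0.21 and 0.16 on normal peripheral, -0.41, -0.50, -0.44, -0.46 and -0.24 on dissected central, and -0.39, -0.39, -0.0042, -0.40 and -0.20 on dissected peripheral arrays. The dissected values are mostly below the normal ones in both areas, with overlap in each. The differences of Rpl29 were -0.28 (SE 0.13, adjusted p = 0.934) in the central and -0.32 (SE 0.15, adjusted p = 0.597) in the peripheral area, and its F test had the smallest p of any member (adjusted p = 0.501, limma). Its brightest probe, at chr9:106159086-106159768 (mm7, plus strand), spans an intron and is shown because its difference was larger than that of the other Rpl29 probes.
Rpl29: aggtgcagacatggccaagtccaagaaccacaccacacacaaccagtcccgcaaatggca
The other 3 probes of Rpl29 gave -0.04, -0.02 and -0.01 in the central area, and -0.16, 0.02 and -0.10 in the peripheral area, so the size of the difference was that of 1 probe of 4. The median Cy5 intensity of that probe was 404, where array medians over the members ran from 1804 to 23488.

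Between the areas of the normal thyroid, members were more often higher in the centre. The median difference was 0.17, against 0.01 over all genes, and 54 of 75 members were above 0, against 52.3% of all genes. Of these, 10 had an unadjusted p under 0.05, and 4 did not overlap between the groups, Rpl11, Rpl17, Rpl22l1 and Rps23, against 3.55%. The median was above 0 under all 36 other settings, from 0.08 to 0.82, and with the slide as a block it was 0.12, with 46 of 75 above 0. Several of these settings could not move it, such as leaving out a dissected array or fitting the normal arrays alone. Over slides 1, 2 and 4, which hold both groups, the median difference was 0.37, 0.10 and -0.10. Members above 0 numbered 47 of 75, 59 of 75 and 28 of 74 there, so slide 4 went the other way. Without normal peripheral 1, 64 of 75 members were above 0 and the median was 0.09, and without that array and the 3 other arrays of weak signal none of the 75 kept an unadjusted p under 0.05.

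Rpl22l1 led this comparison as well. It read -1.53, -0.08 and 0.08 on the normal peripheral arrays, all below the 5 normal central values. Its difference was 0.87 (SE 0.28, 95% interval 0.28 to 1.47, adjusted p = 0.342, limma), a ratio of 1.83, and 0.36 without normal peripheral 1. Rps23, a small-subunit protein of the decoding centre, read 0.30, 0.31, 0.67, 0.23 and 0.24 on normal central against -1.16, 0.18 and -0.13 on normal peripheral arrays. Its difference was 0.72 (SE 0.24, adjusted p = 0.370), and 0.33 without that array. Rps3a, listed today as Rps3a1 and a small-subunit protein, read -0.05, 0.18, 0.49, -0.03 and 0.25 against -1.62, -0.22 and 0.04. Its difference was 0.77 (SE 0.27, adjusted p = 0.389), and 0.25 without the array. In all 3 genes normal peripheral 1 is by far the lowest of the 18 arrays.

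**Figure D2:**
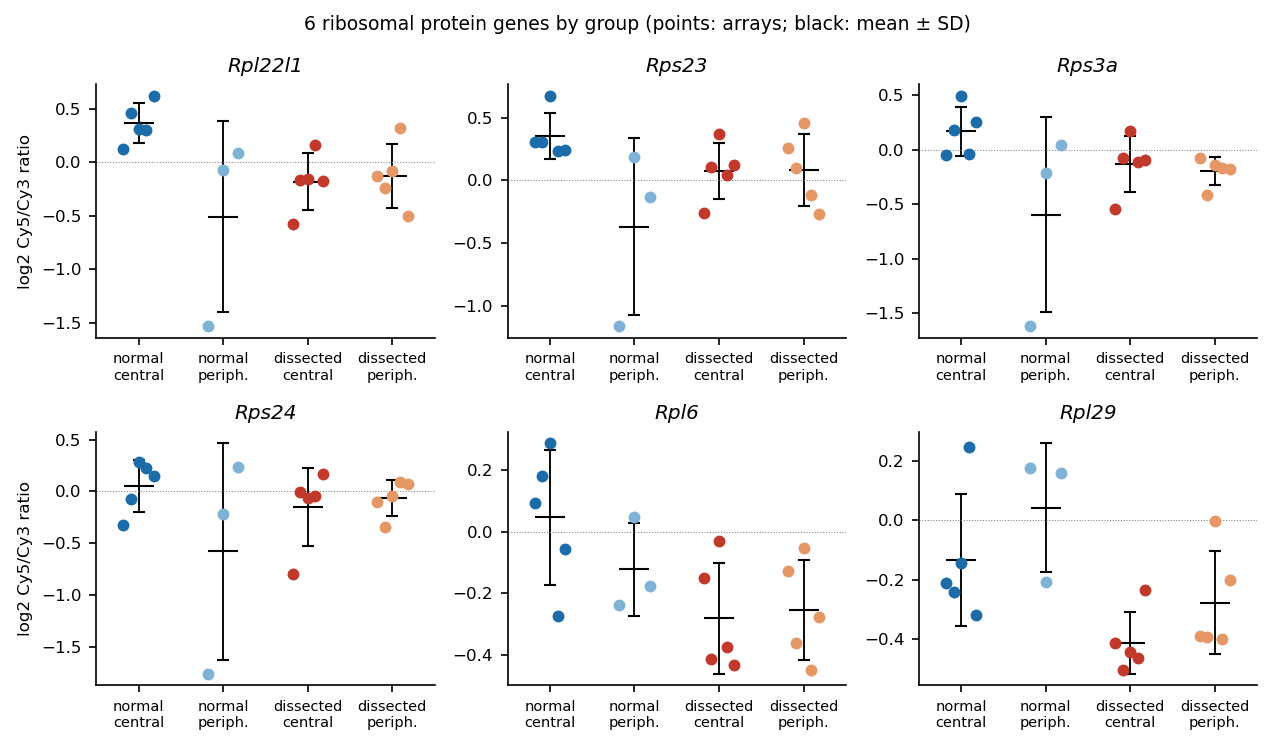
Log2 Cy5 over Cy3 ratio of 6 ribosomal protein genes by group; points are arrays, black bars the mean and SD, and each panel has its own scale. Normal peripheral 1 lies at -1.53 for Rpl22l1, -1.16 for Rps23, -1.62 for Rps3a and -1.76 for Rps24, apart from the other arrays, while Rpl6 and Rpl29 show no such array.

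Between the areas of the dissected thyroid members lay on both sides of 0. The median difference of central minus peripheral was -0.02, and 44 of 75 members were below 0, against 50.6% of all genes, a split that turned to 27 of 75 without the 4 arrays of weak signal, and also without dissected peripheral 3 alone. With median centring in place of loess 72 of 75 were below 0. The members at the ends were Rpl14, a large-subunit protein whose start carries the tract shown above, at 0.45 (SE 0.23, adjusted p = 0.714), and Rps27l, a relative of Rps27 known as a target of p53, at -0.31 (SE 0.19, adjusted p = 0.809). Rpl14 read -0.55, 0.10, -0.49, 0.04 and 0.68 on dissected central and -0.35, -0.65, -0.07, -0.28 and -1.09 on dissected peripheral arrays, so the groups overlap widely. Rps27l read -0.46, -0.35, -0.06, 0.03 and -1.04 against -0.19, -0.33, 0.23, 0.25 and -0.30, with dissected central 5 lowest. Rpl39, a very small large-subunit protein, differed by -0.23 (SE 0.17, adjusted p = 0.868), with dissected peripheral 3 at 0.68 above the other values of its group.

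The change after dissection was not shown to differ between the areas. The contrast of the central change minus the peripheral change had a median of -0.19 over members, with 54 of 75 below 0, against 52.2% of all genes, and a median of -0.03 without the 4 weak arrays. Rpl22l1 had the smallest p, at -0.93 (SE 0.37, adjusted p = 0.789, limma), followed by Rps23 at -0.73 (SE 0.32) and Rpl17 at -0.90 (SE 0.40), both at the same adjusted p. Without normal peripheral 1 the 3 values were -0.41, -0.34 and -0.27. These contrasts, and the comparisons above, share groups with each other and are no independent evidence.

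On several arrays nearly all members stood on the same side of their own mean. Set against each gene's own mean over the 18 arrays, 72 of 75 members were high on normal central 3, 66 on dissected peripheral 3 and 59 on dissected central 3, all on slide 3. By contrast 4 of 75 were high on dissected peripheral 2, 10 on dissected central 1 and 13 on dissected central 2. Over all genes this share stayed between 41.9% and 52.0% on every array. Normal central 3 held the highest of the 18 values for 27 of 75 members, and dissected peripheral 2 the lowest for 19. Slide 3 held 1 region of each group except normal peripheral.

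Normal peripheral 1 stood apart in another way, by the spread among members. The SD of the 75 members' deviations was 0.71 on this array, against 0.13 to 0.28 on the other 17. Over all genes the SD was 0.54 on it and 0.28 to 0.56 on the others. It held the lowest of the 18 values for 29 members and the highest for 16, that is an extreme for 45 of 75, against 11.8% and 12.6% of all genes. The small subunit had a median of -0.51 and the large subunit of -0.22 on it. The array had the weakest signal, with 24.8% of probes well above background, and its C cell marker median was -0.59, against -1.68 and -1.92 on the other 2 normal peripheral arrays.

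**Figure D3:**
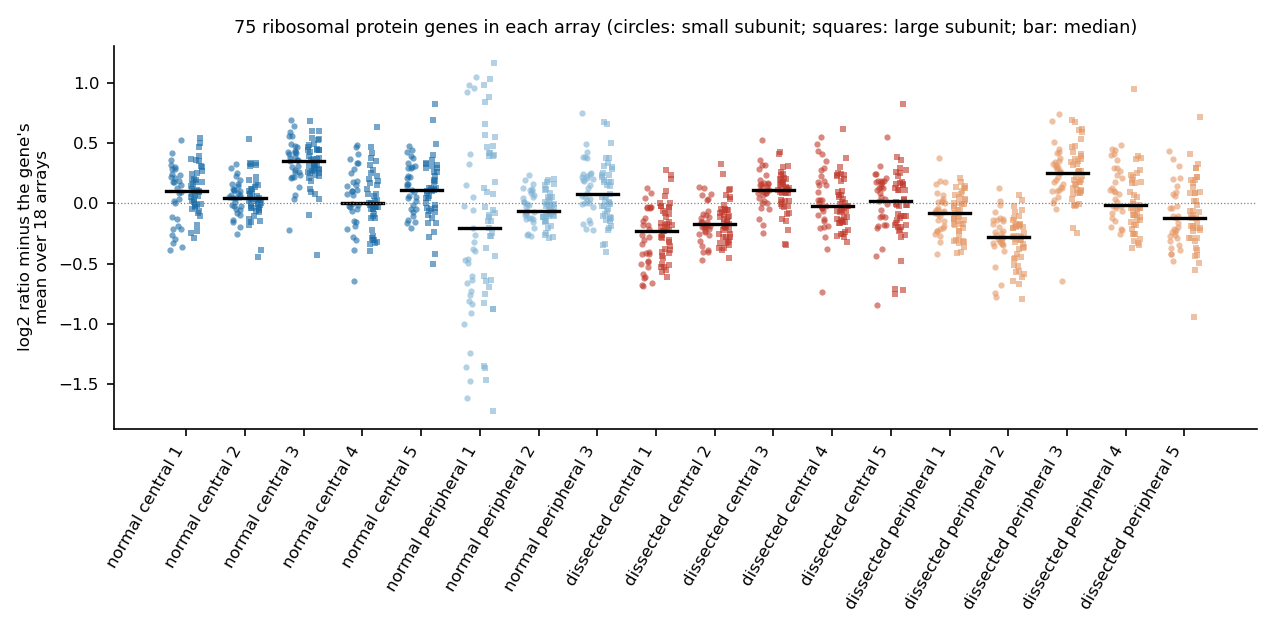
Each point is 1 of 75 ribosomal protein genes on 1 of the 18 arrays, as the log2 ratio minus the gene's mean over the arrays; circles are small-subunit and squares large-subunit genes, and black bars mark the median. Normal central 3 and dissected peripheral 3 sit above 0 nearly as a whole, dissected peripheral 2 below, and normal peripheral 1 spreads from -1.73 to 1.17.

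On normal peripheral 1, separate probes of the same gene stood on the same side for several members. Its 2 probes of Rpl17 read -1.81 and -0.96, those of Rps3a -1.62 and -0.93, and those of Rpl23a 1.07 and 0.42. Each of these 6 values is the lowest or highest of that probe's values over the arrays that measured it. Of 32 members with more than 1 kept probe, 20 had all probes on the same side of 0 on this array and 12 did not, against 6 to 16 that did not on the other 17 arrays. The probes of Rps13 stood farthest apart: 1 read -0.68 and the other 1.67. The median range between probes of 1 gene was 0.39 on this array and 0.07 to 0.28 on the others. The probes of Rps24 and Rps3a that carried the lowest values are shown, since they read stretches across an intron, at chr14:22159843-22161168 (plus strand) and chr3:86250956-86251387 (minus strand) on mm7.
Rps24: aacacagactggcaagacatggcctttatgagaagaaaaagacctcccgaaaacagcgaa
Rps3a: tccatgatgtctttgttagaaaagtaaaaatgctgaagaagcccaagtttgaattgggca
The deviations of members on this array went with the GC content of their probes at a Pearson r of 0.35 and a Spearman rho of 0.33 across the 75 genes, which share 1 library and are not replicates. The same r was 0.39 on dissected central 1 and -0.34 to 0.24 on the other 16 arrays. Members with probes at or below the median GC of 45% lay higher in the normal centre by 0.22 at the median (39 of 49 above 0), and those above it by 0.06 (15 of 26). The part of signal strength and GC in the spread was not tested.

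**Figure D4:**
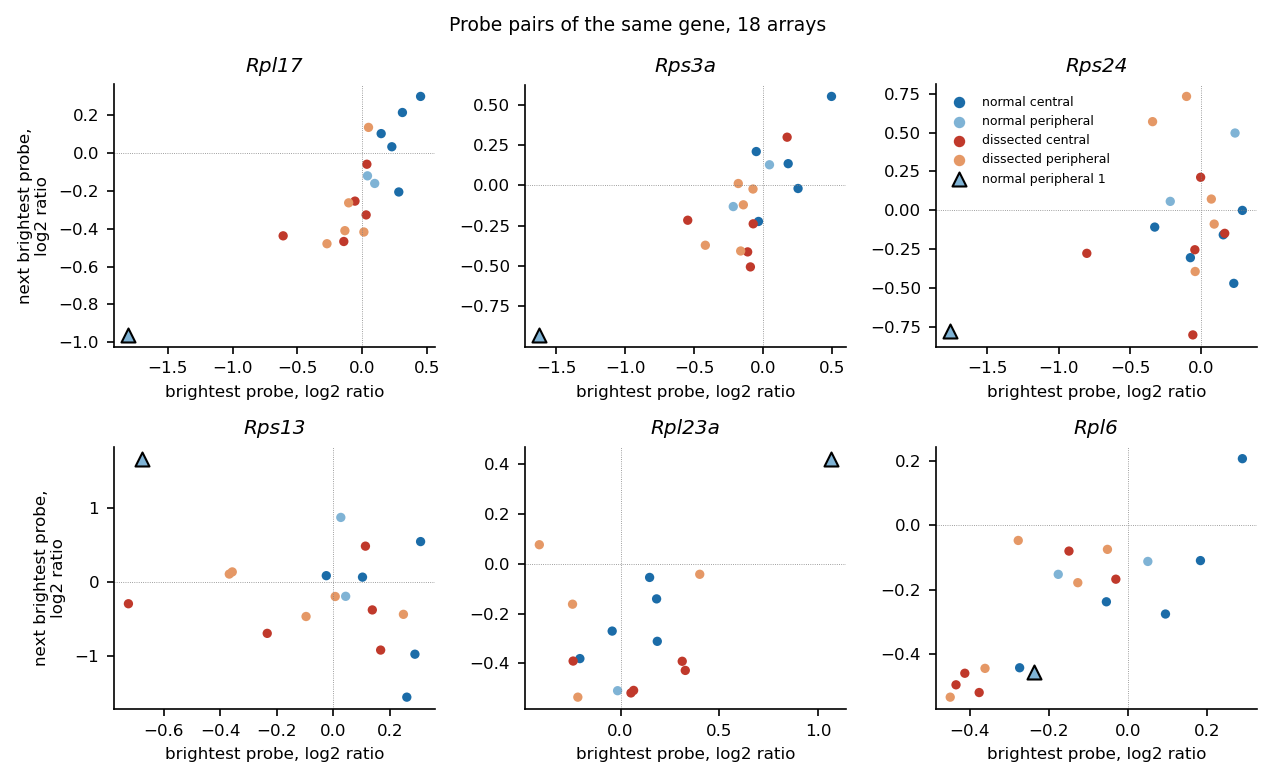
For 6 genes, the log2 ratio of the brightest probe (x axis) against that of the next brightest probe of the same gene (y axis) on each array; colours give the group and the triangle normal peripheral 1, and each panel has its own scale. The triangle lies at the lower left for Rpl17, Rps3a and Rps24 and at the upper right for Rpl23a, on opposite sides of 0 for the probes of Rps13, and inside the other arrays' range for Rpl6.

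Over all arrays, probes of the same member did not always give the same difference. In 32 members with 2 or more probes that passed the filter, all probes had the same sign in 27 members after dissection in the central area, 20 in the peripheral area, 22 between normal areas and 14 between dissected areas. The range between a member's probes was 0.11, 0.16, 0.18 and 0.11 at the median, and the widest was that of Rps13 between normal areas, at 1.54.

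Paralogs with a narrower role than their partners did not stand out after correction. Besides Rpl22l1 and Rps27l, these were Rpl7l1, a relative of Rpl7 that acts in ribosome assembly, and Rpl36al, a near copy of Rpl36a. Rpl7l1 differed by 0.07 (SE 0.23, adjusted p = 0.998) after dissection in the central area, the highest of the members, with an SD of 0.46 over the dissected central arrays. Rpl36al differed by -0.38 (SE 0.19, adjusted p = 0.963) in the central area and by -0.65 (SE 0.30, adjusted p = 0.789) in the contrast of areas, while Rpl36a differed by -0.15 (SE 0.16) and 0.05 (SE 0.25).

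Members with and without the start tract overlapped in all comparisons of groups. After dissection in the central area the median difference was -0.16 for the 12 members with such a start and -0.19 for the 44 tested members with an entry but without it, and in the peripheral area it was 0.03 and 0.0015. Between normal areas the medians were 0.22 and 0.14. Between dissected areas they were 0.096 and -0.027, with 5 of 12 and 26 of 44 below 0. These differences were not tested.

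Other genes of the translation pathway stayed below the threshold too. A prepared list of translation factors and further messages held to carry such a tract had 16 tested genes, whose own starts were not looked up. Of these 16, 0 were called by limma. After dissection in the central area 14 were below 0, 0 of them at an unadjusted p under 0.05, with a median of -0.15. Between the normal areas 13 were above 0, with a median of 0.25. Among them Eef1b2, an elongation factor subunit, differed by 0.98 (SE 0.39, adjusted p = 0.492) and Npm1, the nucleolar chaperone nucleophosmin, by 0.69 (SE 0.28, adjusted p = 0.501) between the normal areas. The median level of this list was -0.50 on normal peripheral 1, against 0.01 and 0.08 on the other normal peripheral and -0.02 to 0.24 on the normal central arrays. Of 7 ribosomal proteins outside the naming rule, all 7 were below 0 after central dissection, 0 at an unadjusted p under 0.05, with a median of -0.17. Between the normal areas the median of these 7 was -0.0051, against 0.17 over the members. There 4 of the 7 were below 0, 1 of them at an unadjusted p under 0.05, against 2.85% of all genes. In the peripheral area their median was -0.16 after dissection, against 0.02 over the members. Of the 7, 4 were below 0 there, 2 of them at that level, against 3.91% of all genes. The probe of Arbp, an older symbol of Rplp0, differed by -0.68 in that area (SE 0.22, adjusted p = 0.513, limma).

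Genes that build ribosomes and the mitochondrial counterparts had no called member either. Of 24 ribosome biogenesis genes 14 were below 0 after central dissection, with a median of -0.02, and none was called by limma; Wdr12, a large-subunit assembly factor, had the smallest p there at 0.33 (SE 0.14, adjusted p = 0.891). Of 73 mitochondrial ribosomal proteins 46 were below 0, with a median of -0.06, against -0.17 for the cytosolic members, and none was called, 2 being lower at an unadjusted p under 0.05. After peripheral dissection the medians were 0.05 and 0.06, against 0.02 for the cytosolic members. Between normal areas ribosome biogenesis genes had a median of -0.14, with 16 of 24 below 0, and mitochondrial members one of 0.05, against 0.17. The difference between these lists was not tested.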

How the data were processed

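RNA of laser-captured regions was extracted with Trizol, amplified and labelled, per the labels' protocols. The deposited scanner files give intensity values for 2 channels of 45018 spots, read by Agilent Feature Extraction, version 9.5.1.1 per the file headers and 8.5.1.1 per the submitters' processing notes. The log10 ratio of Cy5 over Cy3 in the same files was made by that software, per the file headers. The authors' deposited value table holds a linear ratio for 40934 probes (column medians 0.871 to 1.06), and its centring is not stated. On a log scale, with each probe's mean over the arrays taken off both, it correlated with the software's ratio of the same array at 0.976 to 1.00. Its effect as an alternative is in the closing section.

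From the mean and background signals, log2 ratios were computed with limma 3.58.1 in R 4.3.3 (normexp background, offset 50, loess within arrays, controls given no weight). Spots that the software called non-uniform were set to missing. Probes well above background in Cy5 on at least 3 of 18 arrays were kept, 1 per gene by highest mean intensity, leaving 14717 genes. A model of 4 group means over all arrays was fitted with lmFit and eBayes, and p-values were adjusted by Benjamini-Hochberg over all genes. The code was tested on simulated data. The number of arrays limits the precision.

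Named were the 3 members of smallest p per contrast and in the F test, those at the ends of each comparison, paralogs, and members below background; Rpl30, Rps14, Rpl11, Rpl12, Rpl18, Rpl21, Rpl22, Rpl36a, Rps13 and Rpl35a were named after their values were seen. Some items the rule names are not reported here. The members, gene lists and alternatives were chosen with earlier results of these data known. The probes' place in exons or UTRs was not determined, as no genome of build mm7 was used here.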

Additional observations from a re-analysis of the deposited data

Results flagged for a closer look

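In 5 of 51 groups of 4 or more arrays tested, 1 array lay far from the rest of its group by Dixon's criterion; chance gives about 1 in 20 groups. The median of the members on normal central 3 was 0.27, while the other 4 arrays of the group ran from -0.07 to 0.01. Rps23 read 0.67 on that same array, against 0.23 to 0.31. On dissected central 1, Rpl17 read -0.61, against -0.14 to 0.04, and Rps24 read -0.80, against -0.06 to 0.16. Rpl39 read 0.68 on dissected peripheral 3, against -0.14 to 0.04. Groups of 3, and so normal peripheral 1, were not tested this way.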

How the results depend on the processing

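No member was called under any of the 36 other settings; the smallest adjusted p of a named member was 0.0855 (limma, median centring). Of 607 alternative values of named members 593 kept their sign. Some of them could not turn, as leaving out an array of a group not compared leaves a difference unchanged. Median centring in place of loess gave member medians of -0.46 and 0.61 after dissection in the central and peripheral areas (1 member below 0 in the latter), 0.82 and -0.28 between areas in normal and dissected thyroid (72 below 0 in the latter) and -1.08 for the difference between areas; scale normalization gave 0.22 (peripheral) and 0.38 (normal areas). Without the 4 weak arrays, an alternative chosen after seeing the data, 27 members were below 0 between dissected areas and the difference between areas was -0.027. Leaving out 1 array at a time, the medians ran from -0.21 to -0.13, -0.07 to 0.10, 0.09 to 0.29, -0.08 to 0.04 and -0.29 to -0.13 in that order of contrasts, and between dissected areas 27 to 58 members were below 0 (without dissected peripheral 3 and 2).

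Signs turned as follows. Rpl7l1 after central dissection was -0.17 with median centring, -0.021 with the mean of all probes, and -0.10 to 0.15 leaving out 1 array, lowest without dissected central 4. Rps24 after peripheral dissection was -0.21 on scan day 1, -0.065 without the weak arrays, and -0.075 to 0.92 leaving out 1 array. With median centring Rpl23a and Rpl29 there were 0.13 and 0.067. Rpl23a between normal areas was 0.31 with median centring, 0.068 without the weak arrays, and -1.02 to 0.068 leaving out 1 array. Rpl14 between dissected areas was -0.047 on scan day 1. The cause was not tested.

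Over all settings limma called 0 to 154 genes between normal and 0 to 194 between dissected areas. With the replicate number as a block, medians were -0.17, 0.01, 0.17, -0.02 and -0.16 and 0 members were called; same-numbered arrays correlated at -0.07 to 0.29, 9 of 24 pairs over 0.1, against 7 of 96 pairs of different number and 10 of 24 on the same slide. Number and slide are the same on all arrays but normal peripheral 3, which is on slide 4, so they can hardly be told apart. The labels tie no number to a mouse, and the numbers were not taken as pairing. The slide block is given beside the results. Neither block could change the central -0.17, as each slide and each number holds 1 normal and 1 dissected central array. The dissected central and peripheral arrays are laid out the same way.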
